A study of Mus musculus with 16 samples.

Results

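AtT-20 cells carrying ER-Pax7 were compared after 24 h of 4-hydroxytamoxifen with the same cells before it. AtT-20 is a mouse pituitary tumour line of the corticotrope type, the cell that makes the stress hormone ACTH from its precursor pro-opiomelanocortin (Pomc). ER-Pax7 is the transcription factor Pax7 joined to a part of the oestrogen receptor that holds the fusion inactive until 4-hydroxytamoxifen binds it. The comparison takes 6 of the 16 RNA libraries of the series, 3 at 24 h and 3 at 0 h, chosen by their labels, and covers every one of the 24063 genes listed. All 6 libraries are total RNA, depleted of ribosomal RNA, from cells labelled as expressing 3x flag-ER-Pax7 and grown in DMEM with serum; whether these cells are 1 clone or a pool is not stated. The 24 h libraries were treated with the compound and the 0 h libraries were not. The other ER-Pax7 libraries, 3 at 12 h and 3 at 96 h of the compound, and the 4 libraries of untreated AtT-20 cells expressing 3x flag-Pax7 or 3x flag-Neo, 2 of each, are used here for comparison only.

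Pax7 is a pioneer factor, a protein that opens closed chromatin, and in the pituitary it specifies the melanotrope. Melanotropes and corticotropes both make Pomc. Corticotropes cut it with the convertase encoded by Pcsk1 into ACTH, and melanotropes, which also hold the convertase encoded by Pcsk2, cut it further into the melanocyte-stimulating hormone alpha-MSH. The comparison asks which transcripts differ 24 h after the compound that switches the factor on was added.

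No cells without ER-Pax7 treated with 4-hydroxytamoxifen are among these libraries, so the action of ER-Pax7, that of the compound itself and that of time in culture cannot be told apart. Whether replicates were separate cultures is not given in the labels; the p-values then rest on the spread of these libraries alone, which may be technical. Libraries held 62.4 M to 68.8 M counted reads at 24 h, against 61.4 M to 88.7 M at 0 h (M, mega). Reads on the precursor of ribosomal RNA, Rn45s, took 0.753% to 0.942% at 24 h and 0.787% to 0.922% at 0 h. Levels are exon reads scaled to a common library size and are called scaled exon reads. One scaled exon read stood for 8.65 to 9.53 counted reads at 24 h and 8.51 to 12.3 at 0 h. In bulk RNA, fewer cells that express a gene and less RNA per cell cannot be told apart.

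The construct and the cell type were read first. Pax7 held 1853, 1777 and 1648 scaled exon reads at 24 h, against 1773, 1718 and 1686 at 0 h, and did not pass the test (limma, adjusted p = 0.739). Esr1, the gene of the oestrogen receptor, held 1284, 1222 and 1094 at 24 h, against 1129, 1162 and 1110 at 0 h (limma, adjusted p = 0.367). Both were present before induction, and reads of the construct and of the cells' own genes cannot be told apart. Pomc, which corticotropes and melanotropes both make, took 1.02% to 1.05% of all reads at 24 h, against 1.25% to 1.32% at 0 h. The corticotrope factor Tbx19 held 2866, 3061 and 2916 scaled exon reads at 24 h, against 2963, 2894 and 2782 at 0 h. Of 15 markers of fibroblasts, endothelium and blood cells, 6 reached the level needed for testing and 0 were called by limma, with 1 at an unadjusted p under 0.05 and 0 called by edgeR or DESeq2. Their summed level was 34.6 to 40.3 scaled exon reads at 24 h, against 36.4 to 49.4 at 0 h, and Dcn, Itgam and Cd3e were at 0 in all 6 libraries. Of 13 markers of the other hormone lineages, Prl, Tshb, Fshb, Pou1f1, Gnrhr and Trhr were at 0 in all 6 libraries, and the summed level of the 13 was 88.9 to 107 at 24 h, against 130.0 to 141 at 0 h. Gata2 alone held most of that sum, with 80.5, 101 and 95.4 at 24 h, against 123, 132.5 and 121 at 0 h. The part of these other lineages in the results below was not tested. A count of 0 allows up to 3 reads, or 0.244 to 0.353 scaled exon reads per library, by counting error alone.

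The response at 24 h was broad and shallow. Of 15188 genes tested, 2056 (13.5%) were called at an adjusted p under 0.05, 831 (5.47%) higher and 1225 (8.07%) lower at 24 h than at 0 h (limma, Benjamini-Hochberg over all genes tested; 3865 genes had an unadjusted p under 0.05). Of the 2056, 1240 differed by less than 1.25-fold, 482 by 1.25- to 1.5-fold, 249 by 1.5- to 2-fold and 85 by 2-fold or more. The median fold of the genes called was 1.18 for those higher and 1.22 for those lower. Folds are on the scale of log2(scaled exon reads + 1), which understates the change of genes at low levels. Among the 85 genes at 2-fold or more, 34 were higher and 51 lower, and 21 of them had a mean of at least 50 scaled exon reads. The call held in all 6 fits that left out 1 of the 24 h or 0 h libraries for 1146 of the 2056 genes, 445 higher and 701 lower.

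The calls of the most abundant genes were almost all lower at 24 h. Over all genes tested, 5.47% were called higher and 8.07% lower. Of 100 genes with a mean over 5000 scaled exon reads, 1 was called higher and 24 lower at 24 h. Among 3859 genes between 500 and 5000 scaled exon reads, 247 were called higher and 372 lower, and among 6716 genes between 50 and 500, 433 and 553. Among 4513 genes under 50, 150 were called higher and 276 lower. Calls lower thus outnumbered calls higher at every level. The 10 most abundant genes together took 4.59% to 4.78% of all reads at 24 h, against 4.99% to 5.13% at 0 h, without overlap. Scaling by library totals in place of TMM factors turned the split of all calls to 1045 higher and 1048 lower.

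**Figure D1:**
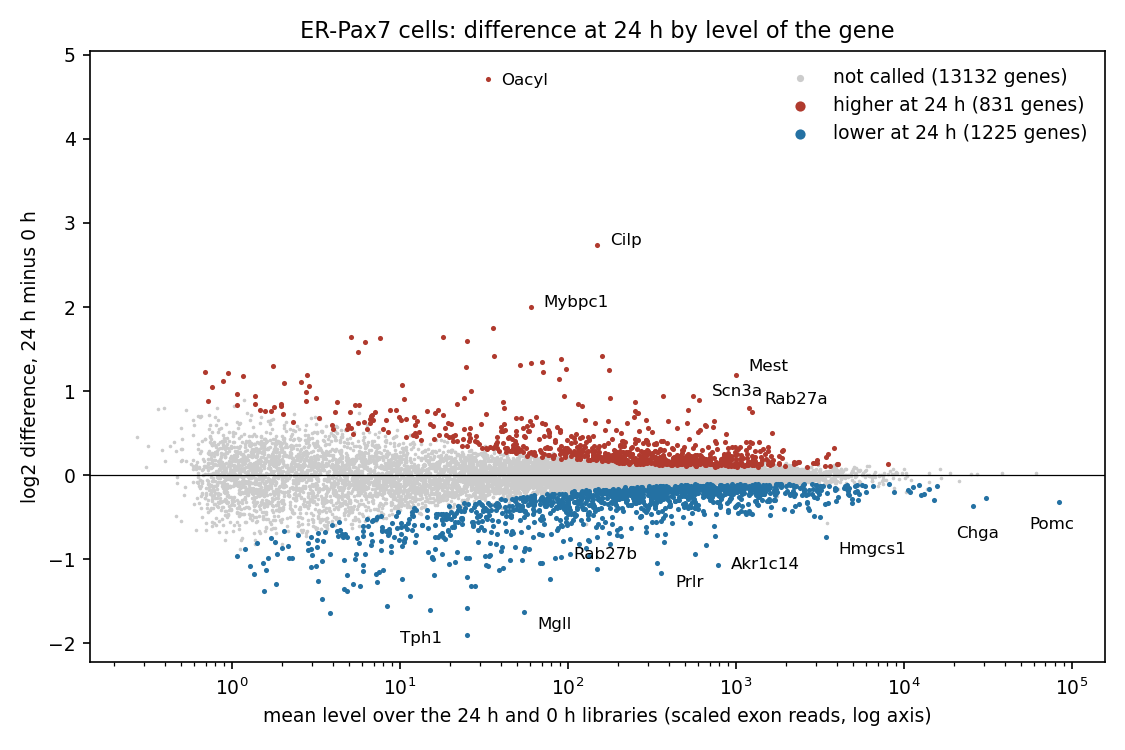
Each point is 1 of the 15188 genes tested, with its mean level over the 6 libraries (scaled exon reads, log axis) on the horizontal axis and its log2 difference, 24 h minus 0 h, on the vertical axis. Genes called higher at 24 h are red (831), genes called lower blue (1225) and the others grey; Oacyl and Cilp stand above the rest, and most points called at high levels lie below 0.

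The gene with the largest rise was Oacyl, a melanotrope marker that encodes a putative acyltransferase. It held 67.8, 67.4 and 62.3 scaled exon reads at 24 h, against 2.02, 1.87 and 0.893 at 0 h. The groups were far apart, with a log2 difference of 4.72 ± 0.142 (SE; 26.3-fold; limma, adjusted p = 3.09e-15). Pcsk2, the melanotrope convertase, rose 1.70-fold, with 318, 313 and 323 scaled exon reads at 24 h, against 189.7, 191 and 179 at 0 h (log2 difference 0.76 ± 0.045, adjusted p = 1.76e-10). Counting took no account of strand, so reads of Pcsk2 and of the antisense transcripts that overlap it cannot be told apart. Megf11 held 1962, 1946 and 1770 at 24 h, against 2011, 1967 and 1824 at 0 h, and Esm1 held 0.575, 1.70 and 1.99 at 24 h, against 1.77, 1.16 and 0.652 at 0 h. Neither passed the test (adjusted p = 0.72 and 0.833). Drd2, the dopamine receptor of melanotropes, was at 0 in all 6 libraries, so 3 of the 5 melanotrope markers had no call. Of the 5, 4 were tested, 2 were called higher and 0 lower (limma; 0 at an unadjusted p under 0.05 and 0 by edgeR or DESeq2 in that direction). Over all genes tested, 5.47% were called higher and 8.07% lower.

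Corticotrope markers, among them Pomc, which melanotropes make too, were called in both directions. Pomc held 74600, 73060 and 75820 scaled exon reads at 24 h, against 95750, 90260 and 93440 at 0 h, a fall of 0.32 ± 0.053 on the log2 scale (1.25-fold; adjusted p = 0.000214). The groups did not overlap. Pcsk1, the convertase that makes ACTH, fell by 0.20 ± 0.033 on the log2 scale, with 8136, 8219 and 8164 at 24 h, against 9468, 9540 and 9207 at 0 h (adjusted p = 0.000196). Per exon length, Pcsk2 stood at 0.0201 to 0.0209 of Pcsk1 at 24 h, against 0.0103 to 0.0106 at 0 h, so Pcsk1 was the more abundant of the convertase transcripts in every library. Crhr1, the receptor for corticotropin-releasing hormone, fell to 8.82, 10.1 and 10.9 scaled exon reads at 24 h, against 21.7, 16.4 and 20.9 at 0 h (log2 difference -0.91 ± 0.142, adjusted p = 0.000113). Neurod1, a factor of corticotrope Pomc expression, was the 1 corticotrope marker that rose, with 509.7, 484 and 492 at 24 h, against 409, 442 and 419 at 0 h (log2 difference 0.23 ± 0.052, adjusted p = 0.00457). Tbx19, Pitx1, Nr3c1 and Lifr did not pass the test, with adjusted p between 0.168 and 0.647, and the vasopressin receptor gene Avpr1b was under the level needed for testing. In all, 8 corticotrope markers were tested, of which 1 (12.5%) was called higher and 3 (37.5%) lower, beside 5.47% and 8.07% over all genes tested. Their median log2 difference was -0.08, against 0.001 over all genes tested.

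Genes of other pituitary states were read next. Six6, a homeobox factor of the early pituitary, fell to 383, 399.5 and 387 scaled exon reads at 24 h, against 490.2, 485 and 469 at 0 h (log2 difference -0.30 ± 0.044, adjusted p = 4.81e-05). Gata2, a factor of gonadotropes and thyrotropes, fell to 80.5, 101 and 95.4 at 24 h, against 123, 132 and 121 at 0 h (log2 difference -0.45 ± 0.076, adjusted p = 0.000295). Nr5a1, the gonadotrope factor SF1, fell to 4.12, 2.23 and 2.10 at 24 h, against 6.28, 6.19 and 6.94 at 0 h (adjusted p = 0.0059), at the bottom of the measured range. Of 4 genes of the other hormone lineages tested, 1 (25%) was called higher and 2 (50%) lower, beside 5.47% and 8.07% over all genes tested. The 1 was Cga, the common alpha subunit of the glycoprotein hormones, with 1.26, 1.06 and 3.03 at 24 h, against 0.473, 0.472 and 0.161 at 0 h (log2 difference 0.96 ± 0.281, adjusted p = 0.0248). It stood near 1 scaled exon read and lost its call without 24 h replicate 3 or 0 h replicate 3 (log2 difference 0.665 and 0.85, adjusted p = 0.149 and 0.0882). Of 8 pituitary progenitor genes tested, 0 were called higher (limma; 0 at an unadjusted p under 0.05, 0 by edgeR or DESeq2) and 3 lower, and 1 of the 3 remained called lower without 24 h replicate 1.

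Among the 15 genes with the largest rises, taken from called genes with a mean of at least 50 scaled exon reads and no overlap of groups (28% of all genes tested had groups that did not overlap), the first was Cilp. Cilp encodes a secreted protein of the cartilage matrix and lies on chromosome 9, 65265180 to 65280605 (mm10). It held 249, 267 and 269 scaled exon reads at 24 h, against 38.1, 40.1 and 37.2 at 0 h, a rise of 2.73 ± 0.053 on the log2 scale (6.65-fold; adjusted p = 1.29e-18). Every 24 h library stood several-fold above every 0 h library. The 250 bases before its RefSeq transcription start (chr9:65264930-65265179, plus strand, GRCm38.p6) are shown because Cilp leads the rises of well-measured genes. Pax7 binds DNA through a homeodomain and a paired domain, and the homeodomain core letters, TAAT and ATTA with 2 or 3 bases between, stand in 0.384% and 0.463% of the 32851 promoter stretches of that length. Neither pair stands in the Cilp stretch on either strand, which says nothing of binding elsewhere.
Cilp: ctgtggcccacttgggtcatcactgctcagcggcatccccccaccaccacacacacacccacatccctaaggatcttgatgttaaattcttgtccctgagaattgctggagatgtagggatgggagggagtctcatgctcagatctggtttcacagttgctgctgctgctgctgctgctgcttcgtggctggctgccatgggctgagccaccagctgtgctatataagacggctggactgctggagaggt

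Among the other rises, Lamb3, the beta 3 chain of the epithelial laminin 332, held 70.2, 84.6 and 70.8 scaled exon reads at 24 h, against 28.1, 30.7 and 30.0 at 0 h (2.48-fold). Gas6, the ligand of the TAM receptor kinases, held 101, 101 and 101 at 24 h, against 46.4, 42.5 and 39.0 at 0 h (2.34-fold). Kit, the receptor for stem cell factor, held 144, 145 and 126 at 24 h, against 51.3, 64.6 and 55.3 at 0 h (2.40-fold). All of these were called with an adjusted p of 9.51e-10 or less and a standard error of at most 0.082 on the log2 scale. Pde2a, a phosphodiesterase of cyclic AMP and cyclic GMP, held 255, 241 and 248 at 24 h, against 105, 108 and 98.3 at 0 h (2.38-fold, adjusted p = 9.62e-13). Gprc5b, an orphan receptor of the G protein-coupled family, held 248, 237 and 216 at 24 h, against 86.8, 85.2 and 87.2 at 0 h (2.68-fold, adjusted p = 2.44e-13). Entpd3, an enzyme that cleaves nucleotides outside the cell, Cdhr1, a cadherin-related protein, Umodl1, a uromodulin-like protein, and Amotl2, an angiomotin family member that binds YAP, rose between 1.92- and 2.52-fold. Their adjusted p lay between 1.47e-12 and 4.48e-08.

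Tfeb, the factor that drives lysosomal genes, rose 2.61-fold, with 133, 131 and 135 scaled exon reads at 24 h, against 54.1, 45.7 and 51.3 at 0 h (log2 difference 1.39 ± 0.067, adjusted p = 4.95e-12). Zfp750, a zinc finger factor of epidermal differentiation, held 102, 112 and 88.8 at 24 h, against 35.0, 41.8 and 40.4 at 0 h (2.54-fold, adjusted p = 4.93e-10). Lmcd1, a LIM domain cofactor, held 111, 134 and 122 at 24 h, against 48.5, 52.5 and 63.7 at 0 h (2.21-fold, adjusted p = 3.55e-09). Each of these factors stood apart between the groups. Mybpc1, the slow skeletal muscle form of myosin-binding protein C, rose 4.01-fold, with 97.8, 97.1 and 97.2 at 24 h, against 26.1, 20.0 and 25.1 at 0 h (adjusted p = 5.74e-13). Mest, an imprinted gene expressed from the paternal copy, was the most abundant of the 15, with 1422, 1430 and 1365 at 24 h, against 622, 617 and 601 at 0 h (2.29-fold, log2 difference 1.20 ± 0.037, adjusted p = 3.09e-15). All 15 were called in each of the 6 fits without 1 library, which their choice by large differences in these same libraries made likely.

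Among the 15 largest falls, Mgll, the lipase that breaks down monoglycerides and the endocannabinoid 2-arachidonoylglycerol, fell to 20.5, 31.8 and 28.4 scaled exon reads at 24 h, against 85.7, 80.4 and 85.5 at 0 h (3.09-fold; log2 difference -1.63 ± 0.143, adjusted p = 6.32e-08). Akr1c14, a hydroxysteroid dehydrogenase, was the most abundant, with 555, 478 and 493 at 24 h, against 1079, 1064 and 1056 at 0 h (2.10-fold, adjusted p = 2.39e-11). Cyp1a1, a cytochrome P450 of the aryl hydrocarbon response, held 46.6, 70.0 and 70.3 at 24 h, against 120.2, 129 and 113 at 0 h (1.96-fold, adjusted p = 6.9e-06). Replicate 1 was the lowest 24 h library for Mgll and Cyp1a1 and the highest for Akr1c14, and the groups were apart in all 3 genes. Ggt1, which cleaves glutathione outside the cell, fell 1.87-fold (adjusted p = 1.24e-06).

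Fxyd3, a regulator of the sodium pump, fell 2.36-fold, with 37.5, 48.5 and 54.9 scaled exon reads at 24 h, against 117, 111 and 104 at 0 h. Sln, an inhibitor of the calcium pump of the endoplasmic reticulum, and Otop3, a proton channel, fell 2.06- and 1.92-fold. Prlr, the prolactin receptor, fell to 202, 234 and 227 at 24 h, against 466, 507 and 513 at 0 h (2.24-fold; log2 difference -1.16 ± 0.063, adjusted p = 3.56e-11). Igfbp4, a binding protein of insulin-like growth factors, fell to 388, 395 and 393 at 24 h, against 779, 725 and 747 at 0 h (1.91-fold, adjusted p = 1.76e-12). In both genes the highest 24 h library lay well under the lowest 0 h library. Olfml3, a secreted protein of the olfactomedin family, Tppp3, a tubulin-binding protein, Fam83e and Ccdc68 fell between 1.95- and 2.16-fold, with adjusted p between 2.84e-10 and 2.3e-07. All 15 were called in each of the 6 fits without 1 library, which their choice by large differences in these same libraries made likely.

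**Figure D2:**
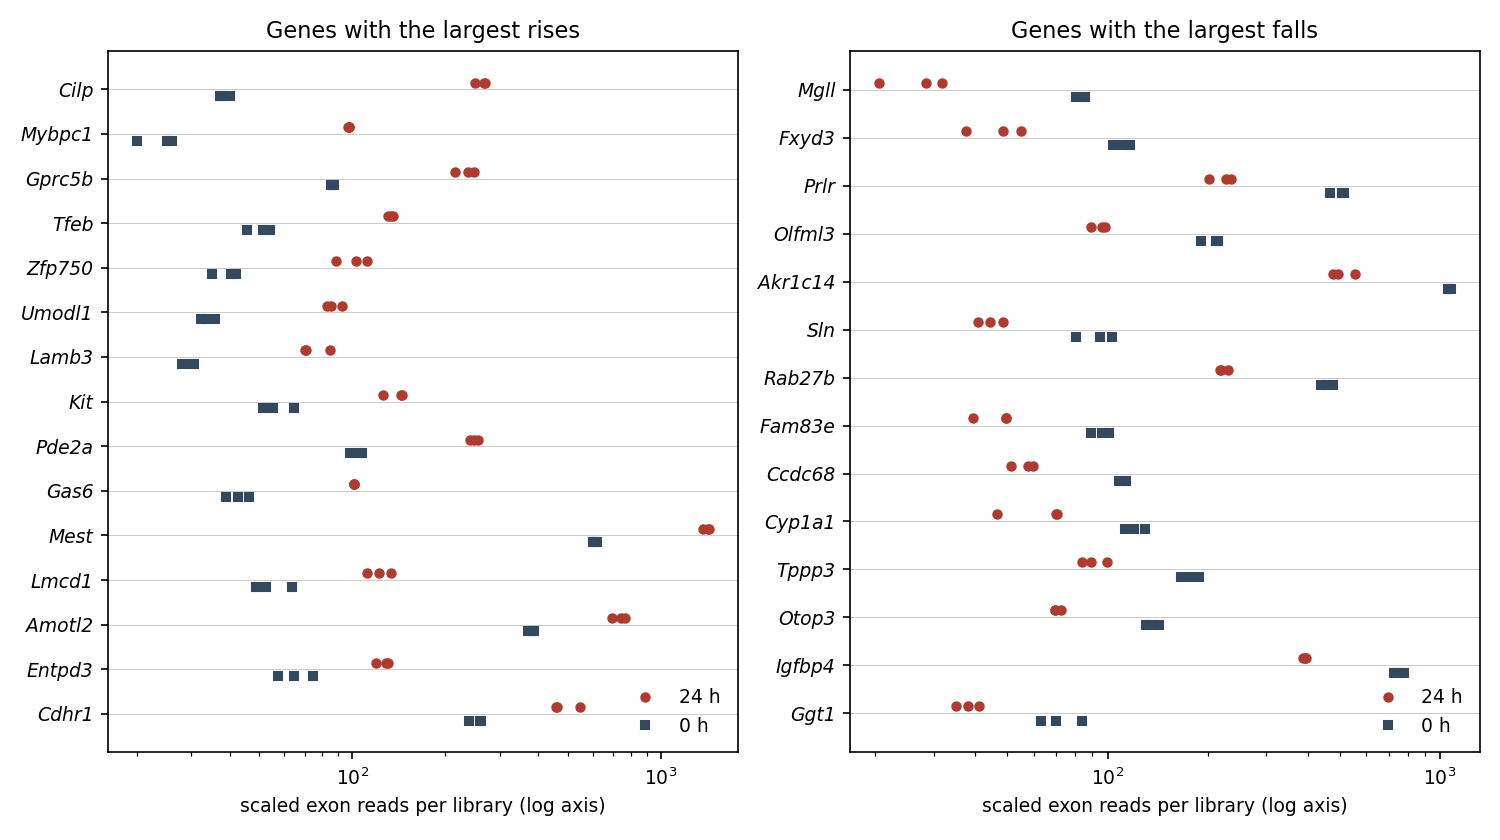
Scaled exon reads per library (log axis) of the 15 genes with the largest rises (left) and 14 of the 15 with the largest falls (right), with 24 h libraries as red circles above and 0 h libraries as dark squares below each gene's line. No gene shows an overlap of the 3 libraries at 24 h and the 3 at 0 h, which the choice of these genes required.

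Within the exocytosis machinery, relatives moved in opposite directions. Rab27a and Rab27b are close relatives among the small GTPases that dock secretory granules, and Sytl2 and Sytl4 are synaptotagmin-like proteins that bind them. Rab27a rose, with 1497, 1536 and 1702 scaled exon reads at 24 h, against 956, 909 and 954 at 0 h (log2 difference 0.75 ± 0.043, adjusted p = 9.8e-11). Rab27b fell, with 217, 219 and 229.5 at 24 h, against 458, 439 and 477 at 0 h (log2 difference -1.04 ± 0.047, adjusted p = 1.76e-12). Per exon length, the Rab27a level was 15.1 to 16.2 times that of Rab27b at 24 h, against 4.37 to 4.56 times at 0 h, so Rab27a was the more abundant in every library. Sytl2 rose, with 322, 331 and 316 scaled exon reads at 24 h, against 189.7, 195 and 196 at 0 h (log2 difference 0.74 ± 0.045, adjusted p = 2.84e-10). Sytl4 fell, with 1024, 1017 and 1051 at 24 h, against 1423, 1342 and 1392 at 0 h (log2 difference -0.43 ± 0.035, adjusted p = 1.97e-08). Sytl2 stood at 0.238 to 0.258 of Sytl4 per exon length at 24 h, against 0.106 to 0.115 at 0 h. Of 29 exocytosis genes tested, 5 (17.2%) were called higher and 8 (27.6%) lower, beside 5.47% and 8.07% over all genes tested. Syt7, a calcium sensor of granule release, fell, with a log2 difference of -0.23 ± 0.031 (adjusted p = 2.63e-05).

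Transcripts of most proteins packed into granules, or set in their membrane, fell. Of 11 granins and granule membrane proteins tested, 8 were called lower and 0 higher (limma; 0 higher at an unadjusted p under 0.05, 0 by edgeR or DESeq2), with a median log2 difference of -0.23, against 0.001 over all genes tested. Chga, chromogranin A, fell to 22630, 22280 and 22820 scaled exon reads at 24 h, against 29570, 29150 and 28790 at 0 h (log2 difference -0.37 ± 0.040, adjusted p = 1.26e-06). Chgb, chromogranin B, fell to 13660, 13390 and 14130 at 24 h, against 16980, 16890 and 16450 at 0 h (log2 difference -0.29 ± 0.038, adjusted p = 1.3e-05). These are 1.29- and 1.22-fold falls of transcripts with means over 5000 scaled exon reads, and the groups did not overlap. Nucb2, the precursor of nesfatin, Vgf, a neuropeptide precursor, and Cyb561, the electron carrier of the granule membrane, fell by 0.39, 0.34 and 0.23 on the log2 scale, with adjusted p between 2.57e-06 and 3.83e-05. Of 13 peptide processing enzymes tested, 1 (7.69%) was called higher and 4 (30.8%) lower, beside 5.47% and 8.07% over all genes tested. The 1 was Pcsk2, and those lower held Pcsk6 and Cpd, a convertase and a carboxypeptidase, with log2 differences of -0.41 ± 0.063 and -0.14 ± 0.035 (adjusted p = 9.89e-05 and 0.0074).

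Transcripts of the enzymes of sterol synthesis fell almost throughout. Of 20 tested, 18 were called lower and 0 higher at 24 h (limma; 0 higher at an unadjusted p under 0.05, 0 by edgeR or DESeq2), with a median log2 difference of -0.38, against 0.001 over all genes tested, of which 8.07% were called lower. All 18 remained called lower in each of the 6 fits without 1 library. Hmgcs1, which makes HMG-CoA, fell to 2091, 2852 and 2857 scaled exon reads at 24 h, against 4018, 4480 and 4346 at 0 h (log2 difference -0.73 ± 0.082, adjusted p = 1.95e-06). Replicate 1 was the lowest of the 24 h libraries, by more than the other two differed from each other, and all 3 lay under the 0 h libraries. Idi1, Fdft1 and Cyp51, which act in turn further down the pathway, fell by 0.46, 0.43 and 0.41 on the log2 scale, with adjusted p between 6.26e-06 and 2.07e-05. Ebp and Dhcr7, enzymes near its end, did not pass the test, with log2 differences of -0.12 ± 0.045 and -0.003 ± 0.046 (adjusted p = 0.0784 and 0.976).

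Genes of sterol sensing, uptake and transport moved in both directions. Of 16 such genes tested, 3 (18.8%) were called higher and 4 (25%) lower, beside 5.47% and 8.07% over all genes tested. Of the 4, 2 remained without 24 h replicate 1, 0 h replicate 1 or 0 h replicate 2. Insig1, which retains the sterol sensor in the endoplasmic reticulum and is itself induced when sterol is low, fell to 2875, 3306 and 3346 scaled exon reads at 24 h, against 3918, 4029 and 3969 at 0 h (log2 difference -0.33 ± 0.048, adjusted p = 5.13e-05). Its relative Insig2 rose, with 466, 499 and 522 at 24 h, against 392, 439 and 439 at 0 h (log2 difference 0.23 ± 0.048, adjusted p = 0.0022). Abca1, the exporter of cholesterol, rose 1.69-fold at a low level, with 18.2, 18.3 and 19.3 at 24 h, against 9.36, 12.0 and 10.5 at 0 h (adjusted p = 5.78e-05). Stard4, a carrier of cholesterol in the cytosol, rose by 0.23 and Npc2, a lysosomal cholesterol carrier, fell by 0.21 on the log2 scale (adjusted p = 0.000799 and 0.0015).

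Genes of fatty acid synthesis fell or were not called. The share called lower over all genes tested was 8.07%. Of 18 genes tested, 10 were called lower and 0 higher (limma; 0 higher at an unadjusted p under 0.05, 0 by edgeR or DESeq2), with a median log2 difference of -0.16, and 8 of the 10 remained called in all 6 fits without 1 library. Fads2, the delta-6 desaturase, fell to 1201, 1510 and 1351 scaled exon reads at 24 h, against 1926, 1914 and 1758 at 0 h (log2 difference -0.47 ± 0.063, adjusted p = 2.13e-05). Scd1, the delta-9 desaturase, fell to 752, 949 and 883 at 24 h, against 1087, 1146 and 1125 at 0 h (log2 difference -0.38 ± 0.059, adjusted p = 9.62e-05). Acss2, which makes acetyl-CoA from acetate, Elovl6, an elongase, and Fads1, the delta-5 desaturase, fell by 0.39, 0.24 and 0.23 on the log2 scale, with adjusted p between 8.86e-05 and 0.00011.

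Sterol and fatty acid enzymes are known targets of the SREBP factors, which bind sterol regulatory elements. The letters TCAC and CCAC with 1 base between, on either strand, stood in 1.05% of the 32851 promoter stretches. By gene, they stood in 1.22% of the 27025 genes, in 1 of the 15 sterol synthesis genes with a promoter in the table and in 0 of the 15 fatty acid genes. The 1 was Hmgcs1 (chr13:119690101-119690350, plus strand, GRCm38.p6, from RefSeq), shown as the gene with the largest fall of the pathway. The match, in capitals, lies 137 to 129 bases before the start.
Hmgcs1: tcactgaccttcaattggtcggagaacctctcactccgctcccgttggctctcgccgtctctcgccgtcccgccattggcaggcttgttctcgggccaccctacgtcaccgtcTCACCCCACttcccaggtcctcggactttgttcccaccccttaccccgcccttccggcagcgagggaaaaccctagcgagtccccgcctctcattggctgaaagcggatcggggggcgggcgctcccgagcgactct

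Chaperones of the endoplasmic reticulum fold secreted proteins such as Pomc, and most of their transcripts tested fell. The share called lower over all genes tested was 8.07%. Of 28 genes tested, 17 were called lower and 0 higher (limma; 0 higher at an unadjusted p under 0.05, 0 by edgeR or DESeq2), with a median log2 difference of -0.16, against 0.001 over all genes tested, and 15 of the 17 remained called in all 6 fits without 1 library. Pdia6, a disulphide isomerase, fell to 3509, 3418 and 3642 scaled exon reads at 24 h, against 4430, 4312 and 4312 at 0 h (log2 difference -0.30 ± 0.037, adjusted p = 4.62e-06). Calr, the calcium-binding chaperone calreticulin, fell to 4340, 4193 and 4459 at 24 h, against 5190, 5009 and 5042 at 0 h (log2 difference -0.23 ± 0.037, adjusted p = 0.000138). The libraries within a group differed little, and the groups did not overlap. Sdf2l1, a cofactor of the chaperone BiP, Creld2, a stress-induced isomerase, and Pdia4, another isomerase, fell by 0.38, 0.31 and 0.23 on the log2 scale, with adjusted p between 8.62e-06 and 3.83e-05.

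Some promoters of these chaperone genes held the same element. The endoplasmic reticulum stress element, CCAAT and CCACG with 9 bases between, on either strand, stood in 0.113% of the 32851 promoter stretches. By gene, it stood in 0.13% of the 27025 genes and in 9 of the 22 chaperone genes with a promoter in the table. Of those 9, Calr, Canx, Creld2, Derl3, Dnajc3, Hsp90b1, Hspa5 and Pdia6 were called lower at 24 h and Syvn1 was not called. Canx lost its call without 24 h replicate 1 or 2 or 0 h replicate 2 or 3 (log2 difference -0.12 to -0.11, adjusted p 0.0676 to 0.0949). The element is a known binding site of ATF6 and NF-Y, and a match of letters does not show that either was bound here. The stretches of Calr (chr8:84846932-84847181, minus strand), Pdia6 (chr12:17266339-17266588, plus strand) and Creld2 (chr15:88819396-88819645, plus strand), from RefSeq on GRCm38.p6, are shown as members described above that hold it, with the element in capitals.
Calr: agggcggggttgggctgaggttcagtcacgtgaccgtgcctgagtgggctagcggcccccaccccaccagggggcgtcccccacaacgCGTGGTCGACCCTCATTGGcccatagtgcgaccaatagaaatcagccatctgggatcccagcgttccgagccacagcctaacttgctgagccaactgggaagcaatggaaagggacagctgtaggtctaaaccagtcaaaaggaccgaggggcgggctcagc
Pdia6: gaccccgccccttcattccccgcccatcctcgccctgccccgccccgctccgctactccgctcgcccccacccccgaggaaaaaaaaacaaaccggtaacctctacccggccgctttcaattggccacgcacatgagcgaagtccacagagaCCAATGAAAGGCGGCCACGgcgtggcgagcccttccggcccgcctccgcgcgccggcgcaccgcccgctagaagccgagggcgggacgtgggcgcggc
Creld2: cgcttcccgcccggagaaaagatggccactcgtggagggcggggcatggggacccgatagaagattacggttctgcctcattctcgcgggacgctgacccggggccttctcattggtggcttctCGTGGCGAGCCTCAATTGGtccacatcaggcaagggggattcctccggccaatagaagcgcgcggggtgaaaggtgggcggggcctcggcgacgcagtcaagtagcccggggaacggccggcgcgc
In Pdia6 the element reads in the direction of the gene and lies 98 to 80 bases before its start. In Calr and Creld2 it reads on the other strand, 162 to 144 and 126 to 108 bases before the start. The 8 letters TCACGTGA, the element of lysosomal genes, also stood in the Calr stretch and in 0.785% of all stretches.

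**Figure D3:**
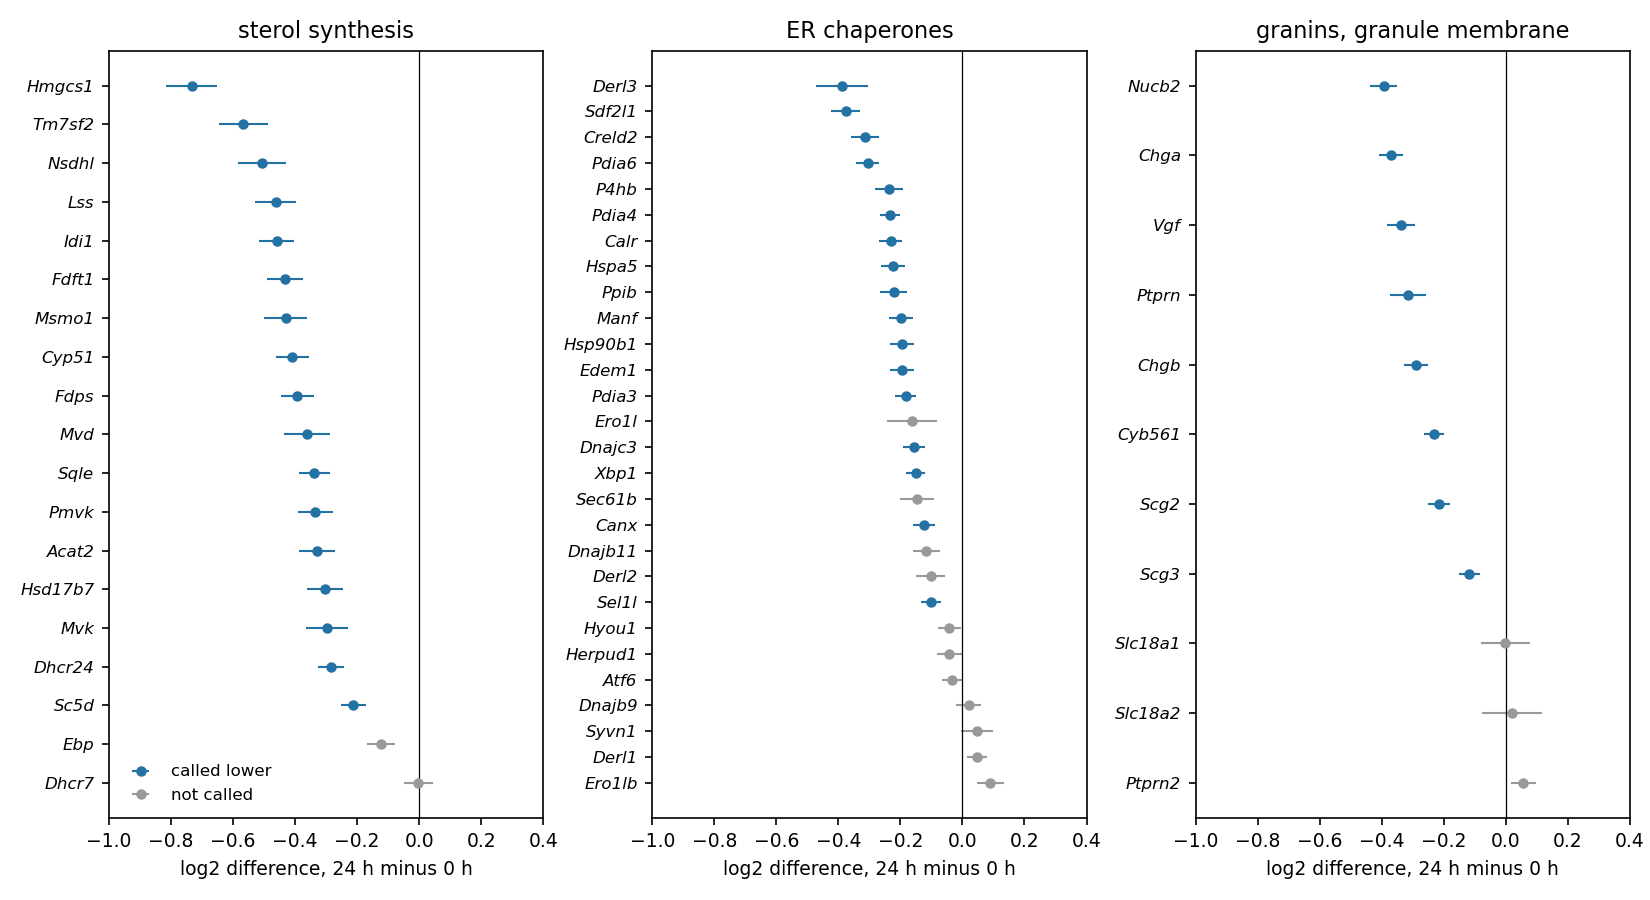
Log2 difference, 24 h minus 0 h, with its standard error, for 19 of the 20 tested genes of the sterol synthesis (left) list and for every tested gene of the endoplasmic reticulum chaperone (middle) and granin and granule membrane (right) lists. Genes called lower are blue and genes not called grey; no gene of the 3 lists was called higher, and the largest fall is that of Hmgcs1.

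Lists for amino acid stress, translation and growth held few calls that lasted. Over all genes tested, 5.47% were called higher and 8.07% lower. Of 24 amino acid stress genes, 6 were called lower and 0 higher (limma; 3 higher at an unadjusted p under 0.05, 0 by edgeR or DESeq2), but only 2 or 3 remained called lower without any 1 library other than 0 h replicate 3. Atf4, the factor at the centre of that response, fell to 3635, 3722 and 3766 scaled exon reads at 24 h, against 4311, 4077 and 4026 at 0 h (log2 difference -0.16 ± 0.036, adjusted p = 0.00418). Of 20 tRNA synthetases, 0 were called (limma; 4 higher and 0 lower at an unadjusted p under 0.05, 0 by edgeR, 2 higher by DESeq2). Of 37 DNA replication genes, 0 were called (limma; 2 higher and 0 lower at an unadjusted p under 0.05, 0 by edgeR or DESeq2), and their log2 differences lay between -0.10 and 0.13. Of 78 ribosomal protein genes, whose near-identical copies make single values uncertain, 0 were called (limma; 0 higher and 1 lower at an unadjusted p under 0.05, 0 by edgeR or DESeq2). Of 27 mitosis genes, 2 (7.41%) were called lower, near the 8.07% over all genes tested, and 0 or 1 of them without any 1 library. Of the 27, 26 had a log2 difference under 0 and the median was -0.05. Of 64 clustered histone genes, also near-identical copies, 5 (7.81%) were called lower, also near the share over all genes tested. That count lay between 0 and 11 when 1 library was left out. Ccnd1, cyclin D1, fell to 33.9, 29.7 and 30.2 at 24 h, against 45.5, 46.3 and 46.5 at 0 h (log2 difference -0.55, adjusted p = 0.000571).

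**Figure D4:**
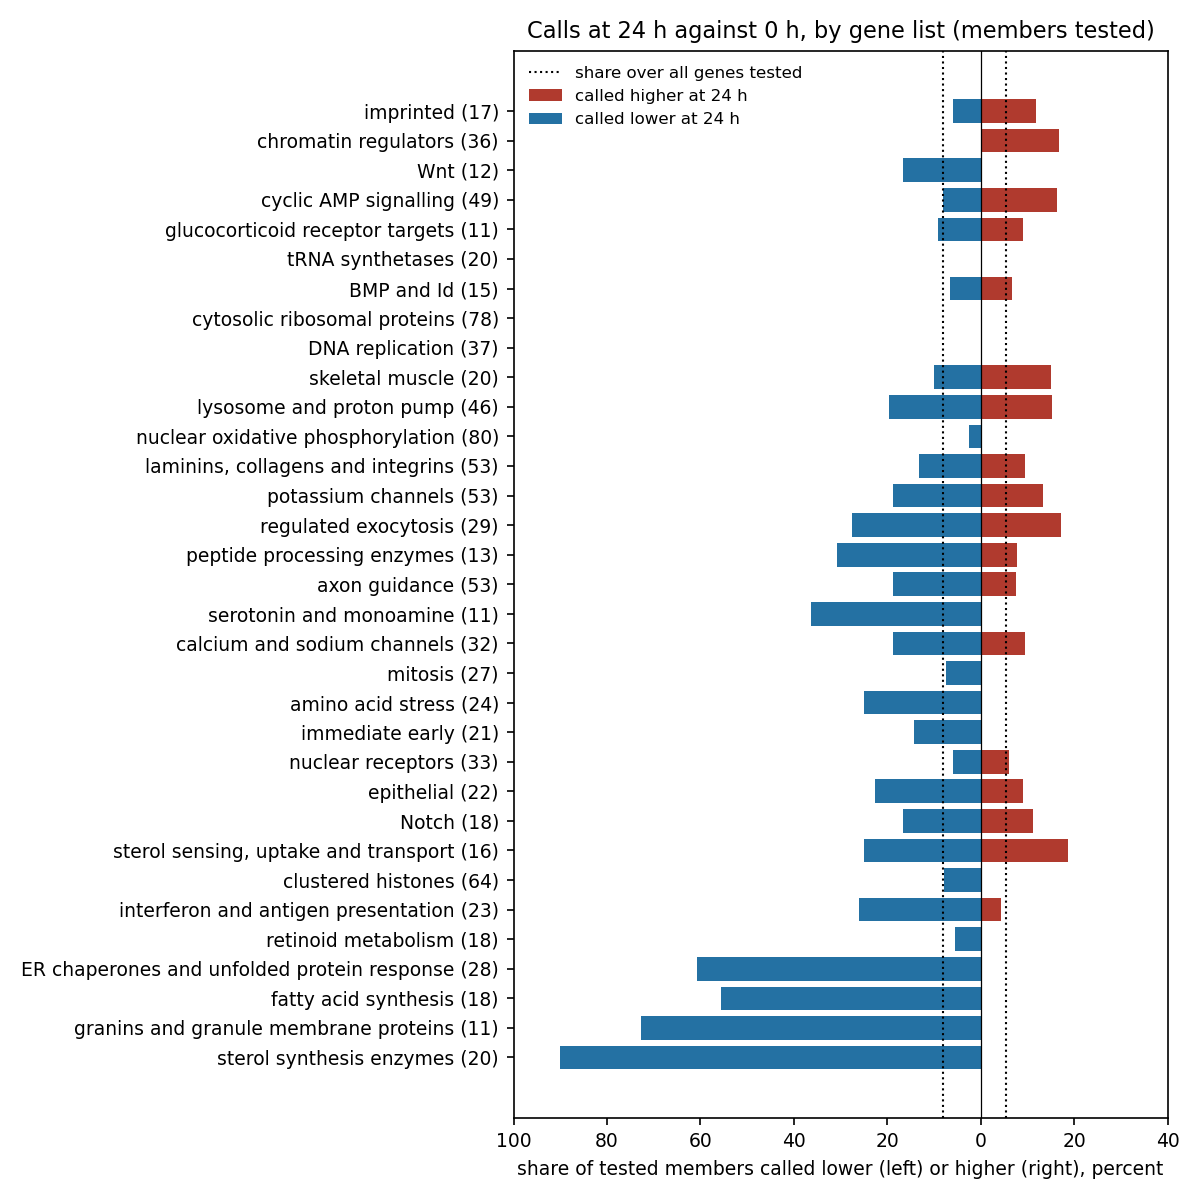
Share of tested members called lower (blue, to the left) and higher (red, to the right) at 24 h for each gene list with at least 10 members tested (number in brackets), ordered by median log2 difference. Dotted lines mark the shares over all 15188 genes, 8.07% lower and 5.47% higher; sterol synthesis, granins, fatty acid synthesis and endoplasmic reticulum chaperones reach furthest to the left, with 0 members called higher.

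Of 53 tested genes with potassium channel symbols, 7 (13.2%) were called higher and 10 (18.9%) lower, beside 5.47% and 8.07% over all genes tested. Kcnip3, a calcium-binding subunit of A-type channels, rose, with 760.3, 719.6 and 707 scaled exon reads at 24 h, against 513, 499 and 496 at 0 h (log2 difference 0.53 ± 0.037, adjusted p = 1.4e-09). Kcnh1, a channel of the ether-a-go-go family, fell 2.27-fold at a low level, and Kcnc1, a fast delayed rectifier, rose 1.31-fold (adjusted p = 1.27e-05 and 4.82e-05). Of 32 calcium and sodium channel genes, 3 (9.38%) were called higher and 6 (18.8%) lower, and 3 lower without 24 h replicate 3. Scn3a, a voltage-gated sodium channel, rose 1.86-fold, with 796, 794 and 772 at 24 h, against 393, 442 and 435 at 0 h (log2 difference 0.90 ± 0.043, adjusted p = 4.46e-12). Cacna1h, a T-type calcium channel, fell to 48.8, 55.2 and 50.4 at 24 h, against 86.9, 86.1 and 78.8 at 0 h (log2 difference -0.70 ± 0.102, adjusted p = 5.61e-05).

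Cyclic AMP is the messenger through which corticotropin-releasing hormone acts. Of 49 genes of its pathway, 8 (16.3%) were called higher, beside 5.47% over all genes tested. The 4 (8.16%) called lower were near the 8.07% over all genes tested, and 2 were called lower without 24 h replicate 3 or 0 h replicate 2. Besides Pde2a, Pde4d, another phosphodiesterase, rose 1.36-fold, with 135, 142 and 135 scaled exon reads at 24 h, against 102, 98.9 and 101 at 0 h (adjusted p = 9.85e-06). Prkar2b, a regulatory subunit of protein kinase A, rose, with 970.0, 988 and 975 at 24 h, against 743, 730.0 and 759 at 0 h (log2 difference 0.39 ± 0.036, adjusted p = 9.19e-08). Rapgef4, the cyclic AMP sensor EPAC2, rose by 0.25 ± 0.032 and Akap12, an anchor of protein kinase A, fell by 0.59 ± 0.079 on the log2 scale (adjusted p = 1.16e-05 and 1.86e-05). The groups did not overlap for any of these genes. Nr4a2, an orphan receptor that the hormone's signal induces in corticotropes, fell to 243, 229.8 and 218 at 24 h, against 349.9, 367 and 341 at 0 h (log2 difference -0.61 ± 0.051, adjusted p = 2.92e-08). It was 1 of 3 immediate early genes called lower of 21 tested, with 0 higher (limma; 3 higher at an unadjusted p under 0.05, 0 by edgeR or DESeq2).

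Genes of monoamine synthesis fell or were not called. Tph1, the enzyme that starts serotonin synthesis outside the brain, held 8.36, 10.9 and 11.1 scaled exon reads at 24 h, against 38.2, 41.4 and 40.8 at 0 h. This log2 difference of -1.90 ± 0.126 (3.72-fold, adjusted p = 9.08e-10) was the lowest of all 15188 genes tested. Ddc, the decarboxylase of serotonin and dopamine synthesis, fell to 2961, 3027 and 3047 at 24 h, against 3932, 3921 and 3618 at 0 h (log2 difference -0.34 ± 0.042, adjusted p = 5.91e-06). Gch1 and Qdpr, which make and recycle the cofactor of Tph1, fell by 0.28 and 0.24 on the log2 scale (adjusted p = 0.000726 and 0.000228). Of 11 genes of the list tested, 4 were called lower and 0 higher (limma; 0 higher at an unadjusted p under 0.05, 0 by edgeR or DESeq2). Of 18 retinoid genes, 1 (5.56%) was called lower and 0 higher, beside 8.07% and 5.47% over all genes tested. It was Dhrs3, a retinal reductase, which fell to 15.6 ± 0.732 at 24 h, against 40.6 ± 3.98 at 0 h (mean ± SD, n = 3 each), without overlap, for a log2 difference of -1.32 ± 0.108 (limma, adjusted p = 2.06e-08).

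Lysosomal genes, known targets of Tfeb, were called in both directions. Of 46 tested, 7 (15.2%) were called higher and 9 (19.6%) lower, beside 5.47% and 8.07% over all genes tested. Without 0 h replicate 1, 5 were called lower. The median log2 difference was -0.005. Atp6v1c2, a subunit of the proton pump, rose, with 113, 100.3 and 109 scaled exon reads at 24 h, against 74.1, 69.8 and 76.2 at 0 h (log2 difference 0.54 ± 0.067, adjusted p = 6.9e-06). Atp6ap2, an accessory subunit of the pump, and Ctsb, a protease of the lysosome, fell by 0.24 and 0.23 on the log2 scale (adjusted p = 3.87e-05 and 0.000213). The letters TCACGTGA stood in 4 of the 40 lysosomal genes with a promoter in the table, beside 0.907% of the 27025 genes. Of those 4, 1 was called higher, 1 lower and 2 were not called.

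Chromatin regulators were called in 1 direction. Of 36 tested, 6 were called higher and 0 lower (limma; 3 lower at an unadjusted p under 0.05, 0 by edgeR, 1 by DESeq2), against 5.47% higher over all genes tested, and 10 were called higher without 24 h replicate 3. Ezh1, a histone H3 lysine methyltransferase of the Polycomb group, rose, with 653, 649 and 630.3 scaled exon reads at 24 h, against 512, 509.9 and 483 at 0 h (log2 difference 0.36 ± 0.038, adjusted p = 8.06e-07). Chd3 and Chd7, chromatin remodelling ATPases, Tet3, which oxidises methylcytosine, and Kdm5a, a histone demethylase, rose by 0.31, 0.28, 0.30 and 0.14 on the log2 scale, with adjusted p between 3.35e-05 and 0.00274. All of these rises were under 1.5-fold.

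Lists for signalling between cells held calls in both directions. Over all genes tested, 5.47% were called higher and 8.07% lower. In the Notch list, 2 of 18 genes were called higher and 3 lower. Dll1, a ligand, rose, with 27.5, 27.0 and 30.6 scaled exon reads at 24 h, against 14.8, 18.1 and 13.4 at 0 h, and Mfng and Lfng, sugar transferases that modify the receptors, moved apart, with log2 differences of 0.36 ± 0.043 and -0.25 ± 0.039 (adjusted p = 3.11e-05, 4.95e-06 and 0.000126). Among 53 axon guidance genes, 4 were called higher and 10 lower. Ntn4, a netrin, fell to 251, 258 and 264 at 24 h, against 451, 412 and 405 at 0 h (log2 difference -0.71 ± 0.052, adjusted p = 3.55e-09). The semaphorin receptor genes Plxnd1 and Nrp1 fell by 0.81 and 0.35 on the log2 scale, and Sema4c, a semaphorin, rose by 0.32, with adjusted p between 3.79e-08 and 1.02e-05. In the list of laminins, collagens and integrins, 5 of 53 genes were called higher and 7 lower, with Col17a1, an epithelial collagen, at a log2 difference of 0.80 ± 0.089 and Itga7, the laminin receptor of muscle, at -0.98 ± 0.127 (adjusted p = 1.83e-06 and 1.19e-05). The muscle list, with Mybpc1, held 3 genes called higher and 2 lower of 20 tested. Among 9 genes of insulin-like growth factor signalling, Igf2r, the clearance receptor of IGF2, rose by 0.15 and Igfbp4 and Igfbp5, binding proteins, fell by 0.93 and 0.34 on the log2 scale (adjusted p = 0.00439, 1.76e-12 and 4.2e-06).

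Because the fusion holds part of a receptor for oestrogen and its ligand acts on such receptors, genes of the oestrogen response were read as well. The share called lower over all genes tested was 8.07%. Of 7 tested, 3 were called lower and 0 higher (limma; 0 higher at an unadjusted p under 0.05, 0 by edgeR or DESeq2). Greb1, a classic target of the receptor, held 16.1, 16.1 and 18.9 scaled exon reads at 24 h, against 12.9, 13.8 and 15.6 at 0 h, and was not called (adjusted p = 0.28). Besides Igfbp4, the genes lower were Ctsd, a lysosomal protease, and Cxcl12, a chemokine, by 0.15 ± 0.033 and 0.18 ± 0.045 on the log2 scale (adjusted p = 0.0029 and 0.00904).

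The 24 h libraries were also tested against those at 12 h. In all, 26 genes (0.171% of 15188) were called, 11 (0.0724%) higher and 15 (0.0988%) lower at 24 h than at 12 h (limma, adjusted p under 0.05). Leaving out 1 of the 24 h or 12 h libraries gave between 11 calls, without 24 h replicate 1, and 31, and 10 of the 26 remained called throughout. DESeq2 called 98 genes, 32 higher and 66 lower, limma without a filter on low values 17, and limma on the 24 h and 12 h libraries alone 16. Cilp was higher still, with 249, 267 and 269 scaled exon reads at 24 h, against 168, 158 and 169.8 at 12 h (log2 difference 0.66, adjusted p = 1.17e-06). Mybpc1 held 97.8, 97.1 and 97.2 at 24 h, against 56.2, 51.7 and 59.3 at 12 h (log2 difference 0.80, adjusted p = 3.65e-05). Pcsk2 held 318, 313 and 323 at 24 h, against 243, 236 and 234 at 12 h (log2 difference 0.42, adjusted p = 6.46e-05). In each the lowest 24 h library lay above the highest 12 h library. Oacyl and Lamb3 were also higher, by 1.00 and 0.58 on the log2 scale (adjusted p = 0.00153 and 0.00138), and Igfbp4 lower, by 0.30 (adjusted p = 0.00138). The others called in every fit were chosen for that after their values were seen. They were Rgs4, a regulator of G protein signalling, and Enpp2, the secreted enzyme autotaxin, both higher, and Anxa5, annexin A5, and Fabp2, a fatty acid-binding protein, both lower (log2 difference 0.37, 0.31, -0.25 and -0.95). Umodl1 and Amotl2, higher by 0.41 and 0.26, and Prlr, lower by 0.39, lost their call without 24 h replicate 1. Ggt1, lower by 0.58, lost its call without 24 h replicate 1 or 12 h replicate 1, and Igfbp5, lower by 0.23, without 24 h replicate 3 or 12 h replicate 2 or 3, and Fxyd3, Igsf9 and Rab27b, lower by 0.54, 0.35 and 0.26, lost theirs without any of several libraries. All 11 genes higher than at 12 h were among those called higher than at 0 h, and all 15 lower among those called lower, the 24 h libraries being shared by both comparisons.

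Over the whole course of induction, genes differed in where their change lay. Tfeb averaged 50.4 ± 4.28 scaled exon reads before induction, 133 ± 6.04 after 12 h, 133 ± 2.18 after 24 h and 138 ± 5.87 after 96 h (SD, n = 3), and Rab27a averaged 939.8 ± 26.3, 1566 ± 59.7, 1578 ± 109 and 1608 ± 26.8 in the same order. Mybpc1 averaged 23.7 ± 3.25, 55.8 ± 3.83, 97.4 ± 0.393 and 401 ± 11.3 at these times. Its step between 24 and 96 h, a longer interval, was larger than those before. Pomc averaged 93150 ± 2758, 82590 ± 2545, 74490 ± 1386 and 91170 ± 3621, with its lowest mean at 24 h. Pcsk1 averaged 9405 ± 175, 8515 ± 78.6, 8173 ± 42.2 and 10360 ± 113.6, also lowest at 24 h. For neither Pomc nor Pcsk1 did 24 h against 12 h pass the test (log2 difference -0.149 and -0.059, limma, adjusted p = 0.381 and 0.641). Pcsk1 was higher at 96 h than at 0 h (log2 difference 0.14, limma, adjusted p = 0.0026).

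**Figure D5:**
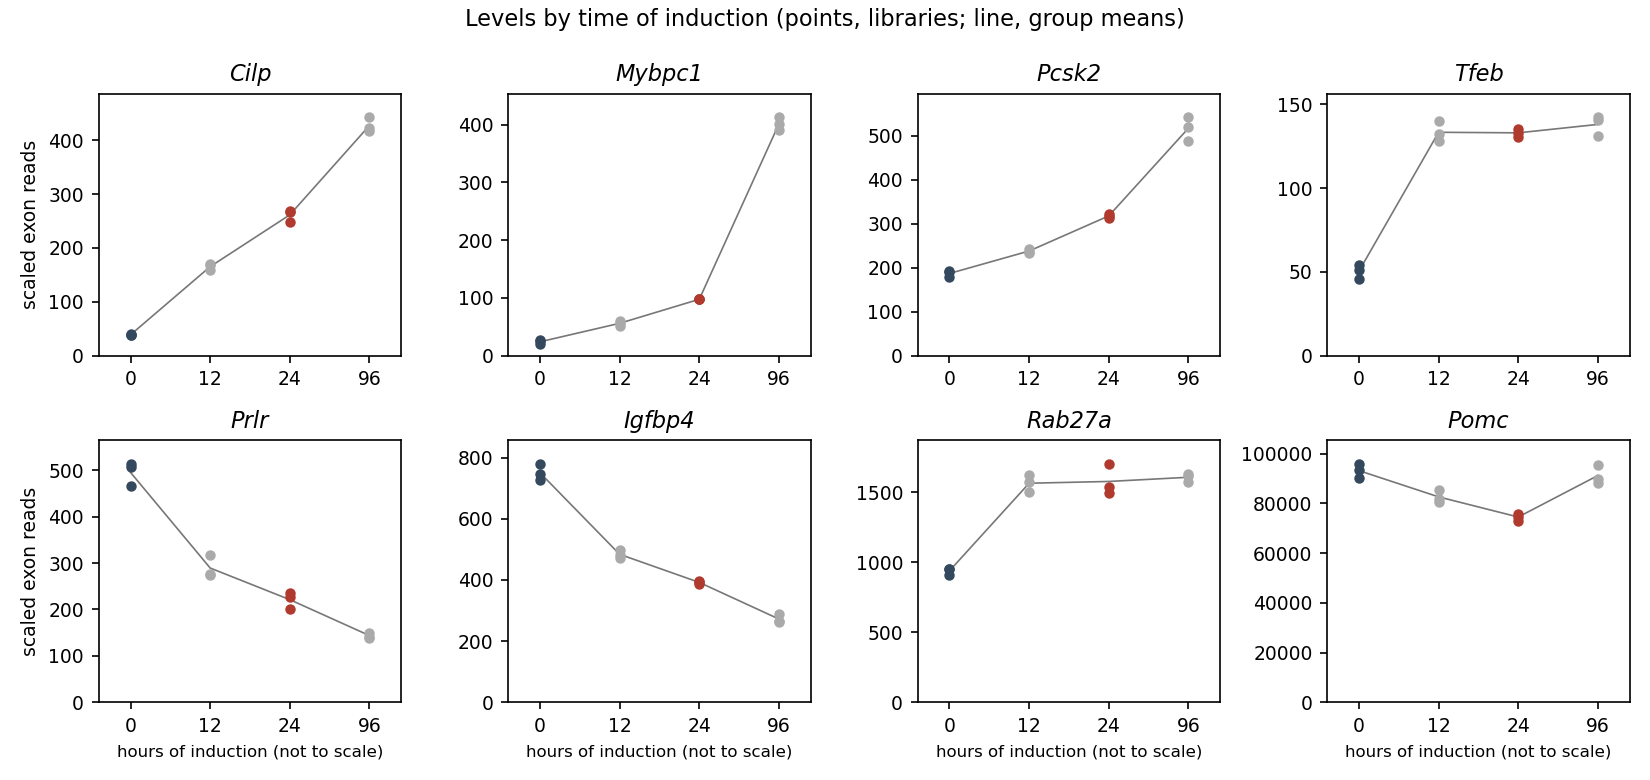
Scaled exon reads of 8 genes in each ER-Pax7 library at 0, 12, 24 and 96 h of induction (spacing of times not to scale), with the line joining group means and the 24 h libraries in red. Cilp, Mybpc1 and Pcsk2 are higher at each later time, and Prlr and Igfbp4 lower at each later time. Tfeb and Rab27a differ little after 12 h. Pomc is lowest at 24 h, though 24 h was not called against 12 h for it.

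Cells expressing Pax7 without the receptor part were compared with Neo cells in libraries of their own, without 4-hydroxytamoxifen. The 2 cell populations may differ in more than Pax7, and reads were counted over whole gene bodies. With 2 Pax7 and 2 Neo libraries, groups were counted as apart when their FPKM values, scaled by TMM, did not overlap, with no test. Over the 15188 genes tested at 24 h, 35.9% were higher and 36% lower in Pax7 than in Neo cells by this rule. Of the 831 genes higher at 24 h, 651 (78.3%) were higher and 81 (9.75%) lower in Pax7 than in Neo cells. Of the 1225 genes lower at 24 h, 301 (24.6%) were higher and 746 (60.9%) lower in Pax7 than in Neo cells. With the deposited scaling these shares were 82.6% and 5.17% for the genes higher at 24 h and 27.8% and 49.2% for the genes lower at 24 h, beside 42.5% and 22.4% over all genes tested. Of the 34 genes higher by 2-fold or more, 33 were higher and 0 lower in Pax7 than in Neo cells, and of the 51 lower by 2-fold or more, 3 were higher and 36 lower.

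Over all genes tested, 35.9% were higher and 36% lower in Pax7 than in Neo cells (42.5% and 22.4% with the deposited scaling). All 15 genes with the largest rises at 24 h were higher in Pax7 than in Neo cells. Cilp had 0.727 and 0.766 FPKM in Pax7 cells, against 0.212 and 0.261 FPKM in Neo cells, while Mest had 26.9 and 26.9 FPKM in Pax7 cells, against 4.97 and 4.60 FPKM in Neo cells. Pcsk2 had 1.24 and 1.31 FPKM in Pax7 cells, against 0.0706 and 0.0730 FPKM in Neo cells. Megf11, which was not called at 24 h, had 1.82 and 1.81 FPKM in Pax7 cells, against 0.514 and 0.542 FPKM in Neo cells. Of the 15 genes with the largest falls, 13 were lower in Pax7 than in Neo cells, Fam83e overlapped and Cyp1a1 was higher, with 0.182 and 0.149 FPKM in Pax7 cells, against 0.101 and 0.104 FPKM in Neo cells. Of the 20 sterol synthesis genes, 16 were higher and 2 lower in Pax7 than in Neo cells, and of the 28 chaperone genes, 19 were higher and 6 lower. With the deposited scaling these counts were 16 and 1, and 21 and 2. Of the 18 sterol synthesis genes called lower at 24 h, 14 were higher in Pax7 than in Neo cells, as were 12 of the 17 chaperone genes called lower. Pdia6 had 28.6 and 30.5 FPKM in Pax7 cells, against 19.7 and 19.9 FPKM in Neo cells. Among the granins, Chgb had 176 and 183 FPKM in Pax7 cells, against 95.3 and 96.2 FPKM in Neo cells. Each of these was lower at 24 h than at 0 h of ER-Pax7 and higher in Pax7 than in Neo cells. The time of Pax7 activity was not matched, and the difference between the systems was not tested. Hmgcs1 had 5.75 and 6.62 FPKM in Pax7 cells, against 6.84 and 6.77 FPKM in Neo cells, lower in Pax7 cells by the TMM scaling and overlapping by the deposited one. Rab27a and Sytl2 were higher and Rab27b and Sytl4 lower in Pax7 than in Neo cells, the same directions as at 24 h. All 27 mitosis genes and 75 of the 78 ribosomal protein genes, of which few or none were called at 24 h, were lower in Pax7 than in Neo cells.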

How the data were processed

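Total RNA depleted of ribosomal RNA was sequenced as paired ends from AtT-20 cells, per the labels' protocols, and groups were taken from the labels. The submitters' processing notes name the mouse build mm10, or GRCm38, and the tools TopHat, HOMER and edgeR, with no versions. In the ER-Pax7 table the deposited signal values are exon reads per gene that the authors scaled to a common library total, per the file headers. The table also holds the authors' log2 folds and the authors' p-values and FDR, per the file headers. The Pax7 and Neo table holds the authors' FPKM over gene bodies, per the file headers.

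Low values stepped evenly, and 100% of these low values above 0 in the 6 libraries came out as whole reads within a tolerance of 0.1. Higher values were not checked in this way. The 12 ER-Pax7 libraries were scaled by TMM (edgeR 4.0.16), and genes with at least 1 scaled exon read in 3 libraries were fitted together with limma 3.58.1 (R 4.3.3, trend, log2 with pseudocount 1). A call is an adjusted p under 0.05 (Benjamini-Hochberg). The values are not whole counts, so limma, and not a count test, gives the results; edgeR's quasi-likelihood test called 2042 genes and DESeq2 1.42.0 called 2248 on the recovered reads. The authors' deposited table calls 888 genes at an FDR under 0.05, 330 higher and 558 lower. The script was tested on simulated data.

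The genes and lists were chosen with earlier results of these data known. Named genes are Pax7 and Esr1, the 15 highest and 15 lowest differences among called genes with a mean of at least 50 scaled exon reads and no overlap of groups, the melanotrope and corticotrope lists, up to 5 genes with the smallest adjusted p of each other list, 5 in each direction between 24 and 12 h, and 10 abundant called genes. A few genes that the rule or the lists hold stay in the counts but are not reported here by name. Scaling, pseudocount, filter, libraries in the fit, replicate number and tool were varied. Of the Pax7 and Neo table, FPKM were rescaled by TMM. Promoters were matched by symbol or gene ID to RefSeq sequences of GRCm38.p6. All columns of per-sample values were mapped to a sample. Depth limits low genes, and limits from counts cover counting error only.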

Additional observations from a re-analysis of the deposited data

Results flagged for a closer look

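Some genes named above differed not only from 0 h but between 24 h and 12 h, by limma's test of that difference. The log2 differences, 24 h minus 12 h, of those higher were Oacyl (1.00), Mybpc1 (0.80), Cilp (0.66), Lamb3 (0.58), Pcsk2 (0.42), Umodl1 (0.41), Rgs4 (0.37), Enpp2 (0.31) and Amotl2 (0.26). Those of the genes lower were Fabp2 (-0.95), Ggt1 (-0.58), Fxyd3 (-0.54), Prlr (-0.39), Igsf9 (-0.35), Igfbp4 (-0.30), Rab27b (-0.26), Anxa5 (-0.25) and Igfbp5 (-0.23).

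Other named genes stood in opposite directions in ER-Pax7 cells at 24 h and in Pax7 cells. Every library at 24 h lay below every library at 0 h, and both Pax7 libraries lay above both Neo libraries, by TMM scaling. The time of Pax7 activity was not matched between the systems, and the difference between them was not tested. The log2 ratios, Pax7 over Neo, of such sterol and fatty acid genes were Idi1 (0.27), Fdft1 (0.12), Cyp51 (0.625), Insig1 (0.53), Npc2 (0.31), Acss2 (0.225), Fads1 (0.195), Fads2 (0.35) and Scd1 (0.115). For endoplasmic reticulum chaperones they were Hspa5 (0.68), Hsp90b1 (0.59), Derl3 (0.50), Canx (0.30), Calr (0.43), Pdia4 (0.33), Pdia6 (0.57) and Sdf2l1 (0.22). Of these chaperones, Hspa5, Hsp90b1, Derl3, Canx and Calr did not pass the test at 96 h against 0 h of ER-Pax7 (limma, adjusted p between 0.154 and 0.978). Pdia4, Pdia6 and Sdf2l1 were still lower at 96 h, by 0.14, 0.11 and 0.24 on the log2 scale. For granule and exocytosis genes they were Chga (0.36), Chgb (0.90), Pcsk1 (0.74) and Syt7 (0.12). For lysosomal genes they were Atp6ap2 (0.29), Ctsb (0.23) and Ctsd (0.19). The others of this kind were Cxcl12 (0.17), Cyp1a1 (0.39), Id1 (0.35), Qdpr (0.16), Six6 (0.20) and Wnt10a (0.067). Cga (-0.18), Mfng (-0.255) and Neurod1 (-0.20) were higher at 24 h than at 0 h and lower in Pax7 than in Neo cells.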

How the results depend on the processing

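Of the 2056 calls of 24 h against 0 h, counts stayed within 1.5 times under every other scaling, pseudocount, filter, tool and left-out library tried, from 1458 without 24 h replicate 1 to 2515 with a replicate block. Library totals in place of TMM gave 1045 higher and 1048 lower, and moved the median of all genes by 0.019 on the log2 scale. Leaving out 12 h replicate 2, which held the most Rn45s reads (chosen after seeing the data), gave 2203. The genes higher or lower both at 24 h and in Pax7 cells numbered 686 and 603 with the deposited scaling and 669 to 682 and 788 to 802 without 1 Pax7 or Neo library, also choices made after seeing the data. No gene named here changed direction, and of those called only Canx and Cga lost their call, Cga also with pseudocount 5 (adjusted p = 0.0544). Nr3c1 was called without 0 h replicate 1 (log2 difference -0.12, limma, adjusted p = 0.048) and Ebp with the block (adjusted p = 0.0377).

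Replicate numbers did not pair the libraries: deviations of same-numbered 24 h and 0 h libraries correlated at -0.019, 0.025 and 0.026, and not every library correlated best with its own number. With the number as a block, calls numbered 2515 against 0 h and 54 against 12 h, 40 of them lower; the other counts of 24 h against 12 h moved too. Without a filter on low values 17 genes were called, 6 lower, and with the libraries of the compared groups alone 16, 6 lower. DESeq2 called 98, 32 higher and 66 lower. Without 1 library the calls ranged between 11 and 31, those higher between 7 and 13 and those lower between 4 and 18; the cause was not tested. Depth limits genes under about 1 scaled exon read.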

Other observations

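Single genes of other signalling lists were called. In the Wnt list, 2 of 12 genes tested were called lower and 0 higher (limma; 1 higher at an unadjusted p under 0.05, 0 by edgeR or DESeq2). Fzd7, a frizzled receptor, held 63.3, 73.9 and 75.4 scaled exon reads at 24 h, against 98.2, 105 and 99.6 at 0 h (log2 difference -0.51 ± 0.075, limma, adjusted p = 6.37e-05). Wnt10a, a ligand, fell by 0.27 ± 0.053 on the log2 scale (adjusted p = 0.00129). In the list of BMP signalling and Id genes, 1 of 15 (6.67%) was called higher and 1 (6.67%) lower, near the shares over all genes tested (5.47% and 8.07%). Smad9, a signal transducer, rose, with 372, 372 and 353 at 24 h, against 289, 312 and 297 at 0 h (log2 difference 0.29 ± 0.047, adjusted p = 0.000163). Id1, an inhibitor of helix-loop-helix factors, fell to 413, 489 and 512 at 24 h, against 637, 630.1 and 572 at 0 h (log2 difference -0.38 ± 0.070, adjusted p = 0.000599). The groups were apart for each of these genes.

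Epithelial genes divided. Besides Lamb3 and Zfp750, which rose (9.09%, beside 5.47% over all genes tested), 5 of 22 (22.7%) were called lower, beside 8.07%. Without 24 h replicate 1 or 0 h replicate 3, 3 were called lower. Grhl2, a factor of epithelial identity, held 23.8, 23.8 and 25.3 scaled exon reads at 24 h, against 33.4, 37.2 and 33.1 at 0 h (log2 difference -0.49, limma, adjusted p = 0.00171). Esrp2, an epithelial splicing factor, held 58.1, 59.0 and 54.1 at 24 h, against 74.7, 70.8 and 66.8 at 0 h (log2 difference -0.30 ± 0.075, adjusted p = 0.00816). Of 23 interferon and antigen presentation genes, 1 (4.35%) was called higher and 6 (26.1%) lower, and 3 lower without 24 h replicate 1. Irf1 rose by 0.21 ± 0.047 and Irf7 fell by 0.33 ± 0.060 on the log2 scale, both being interferon regulatory factors (adjusted p = 0.00296 and 0.000513). Of 11 glucocorticoid receptor targets tested, 1 (9.09%) was called higher and 1 (9.09%) lower. The 1 higher lost its call without 24 h replicate 2 or 3. The 1 lower was Sgk1, a kinase, which fell to 723, 715 and 749 at 24 h, against 876, 894 and 828 at 0 h (log2 difference -0.25 ± 0.041, adjusted p = 0.000218). Fkbp5, another gene that glucocorticoids induce, was not called (adjusted p = 0.179).

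Rab27b and Ccdc68, both among the 15 largest falls, are neighbours on chromosome 18, 10 kb apart (mm10).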
